A study of Mus musculus with 6 samples.

Results

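Mouse ribosomal RNA genes lie in tandem arrays, and the 5 autosomes taken here as array carriers were chr 12, chr 15, chr 16, chr 18 and chr 19. The regions described are the 500 kb bins of these chromosomes that held data in all 3 deposited Hi-C matrices, that is, bins whose correlation with themselves was above 0.5. They numbered 908 of the 4727 autosomal bins with data, with 224 on chr 12, 202 on chr 15, 190 on chr 16, 175 on chr 18 and 117 on chr 19. The unit of description was the pair of bins on 2 different array chromosomes. There were 326535 such pairs among the 10547562 interchromosomal pairs of autosomal bins. They were compared with the 6753375 pairs among the 3819 bins of the other 14 autosomes. They were taken by chromosome and by the presence of data on the diagonal, and no value between chromosomes entered the rule.

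The cells were C2C12, an established line of mouse myoblasts that started from thigh muscle of C3H mice, used at passage 3. Myoblasts were proliferating, sub-confluent cultures collected at day 0 after 72 h. Myotubes had been kept in differentiation medium with horse serum until day 3. AraC-treated myotubes received 10 µg/ml cytosine arabinoside, a nucleoside analogue that kills dividing cells, from day 3 until harvest at day 7. By the study, day 3 cultures still held some undifferentiated myoblasts, and AraC was given to remove them. AraC treatment, the longer time in culture and this change in the mix of cells cannot be told apart. Cultures for myotubes were also plated at higher density than those for myoblasts, so density and medium cannot be told apart from differentiation. Each condition had 2 biological replicates, 6 libraries in all, and the labels name 1 and the same matrix for both replicates of a condition. These matrices are taken here as pooled over the replicates. The study describes pooling but states 500 kb matrices only for single replicates, so the pooling is inferred from the labels. Therefore no test, *p* value or spread between replicates can be given for any difference, and the SDs below are spreads over chromosome pairs, chromosomes or bins. The depth behind a single value is unknown. By the study, both myotube libraries held more unique read pairs between chromosomes than either myoblast library. Its replicate matrices also correlated least in myoblasts. Differences between conditions therefore cannot be told apart from differences in depth. The karyotype of these cells and the position or number of rRNA genes in them were not analysed here, and which chromosomes carry arrays can differ between mouse strains.

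In growing cells, RNA polymerase I transcribes the 45S precursor of the 18S, 5.8S and 28S ribosomal RNAs from such arrays, and the nucleolus forms around those that are active. A single nucleolus can gather arrays of several chromosomes. Mouse chromosomes have their centromere at one end, and the arrays lie near it, so that the first known bases of each chromosome are the nearest to the array that can be read. Terminal differentiation of muscle is known to lower rRNA synthesis as cells leave the cell cycle.

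Hi-C joins DNA ends cut at the sites of a restriction enzyme, here HindIII. The sequences below show the outermost such site of 4 of the array chromosomes. They also show the sites in and around the 45S copy that the genome assembly places on chr 17. Contacts can be read only from such sites. Whether the chr 17 sites report contacts of the arrays was not tested. All are from GRCm38 (mm10), plus strand, 5′ to 3′, and capitals mark the HindIII site. On chr 16, the first bin with data began only at 3500001, so the site shown for it lies outside the bins used.
chr12:3000651-3000736: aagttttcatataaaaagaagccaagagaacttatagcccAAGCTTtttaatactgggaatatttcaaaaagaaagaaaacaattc
chr15:3062007-3062092: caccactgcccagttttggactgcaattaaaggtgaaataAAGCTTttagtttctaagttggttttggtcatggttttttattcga
chr16:3000143-3000228: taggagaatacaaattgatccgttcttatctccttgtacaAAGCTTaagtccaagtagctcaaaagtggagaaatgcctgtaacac
chr19:3000815-3000900: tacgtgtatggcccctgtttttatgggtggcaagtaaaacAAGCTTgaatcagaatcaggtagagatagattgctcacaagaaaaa
chr17:39841696-39841781, before the 45S copy: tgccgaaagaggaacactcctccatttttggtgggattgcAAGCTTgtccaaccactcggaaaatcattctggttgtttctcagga
chr17:39847982-39848067, in the 45S copy: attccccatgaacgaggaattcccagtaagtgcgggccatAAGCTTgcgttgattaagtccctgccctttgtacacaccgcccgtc
chr17:39856074-39856159, after the 45S copy: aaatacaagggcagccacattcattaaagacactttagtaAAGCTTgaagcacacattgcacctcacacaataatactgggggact

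The copy on chr 17 (39843013–39848788) is annotated as the non-coding genes *Gm26917* and *Gm42418* and, in RefSeq, as the small-subunit rRNA pseudogene *Rn18s-rs5*. It spans 5776 bp with a GC content of 64.9%, and 1 HindIII site lies inside it. The nearest sites outside it lie 1277 bp before and 7326 bp after the copy. The next sequence shows where *Rn18s-rs5* begins, with the annotated pseudogene in capitals.
chr17:39846294-39846443: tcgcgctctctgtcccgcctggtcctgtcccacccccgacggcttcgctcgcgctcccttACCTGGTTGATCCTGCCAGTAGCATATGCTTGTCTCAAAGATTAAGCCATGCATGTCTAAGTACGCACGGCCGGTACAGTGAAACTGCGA

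The array chromosomes are short. They rank 1 (chr 19), 2 (chr 18), 4 (chr 16), 5 (chr 15) and 6 (chr 12) from the shortest of the 19 autosomes, with lengths from 61.4 Mb to 120.1 Mb. Their bins held 3.65 protein-coding transcription start sites (TSS) on average, against 4.46 in the other autosomes, and 27.9% of them held none, against 23.4%. GC content (41.7% against 42.0%) and the number of HindIII sites per bin (161 against 160) were close. By chromosome, chr 12 had 2.85 TSS per bin and chr 19 had 6.15. Sequence is known from 3000001 on 4 of the chromosomes and from 3050001 on chr 15.

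Each value in a matrix is the correlation coefficient (*r*) between the interaction profiles of 2 bins after normalization, and is not a number of contacts. It is high where both bins meet the same parts of the genome. The SD of *r* over all interchromosomal autosomal pairs was 0.0446 in myoblasts, 0.0890 in myotubes and 0.0732 after AraC treatment, so values are given below as *z*, in units of that SD from the mean of the condition. An excess is the mean *z* of array-chromosome pairs minus that of pairs among the other 14 autosomes, weighted so that they have the same number of TSS per bin and the same distances of both bins from the start of their chromosomes.

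Over all bins, array chromosomes had slightly more similar profiles than matched pairs among the other autosomes. This pooled difference was smaller than the spread between single chromosome pairs. In myoblasts, their mean *z* was 0.0960, against 0.0566 in the matched pairs, an excess of 0.0393. In myotubes, the means were 0.0823 and 0.0455, and the excess was 0.0368. In AraC-treated myotubes, they were 0.0676 and 0.0402, and the excess was 0.0273. The SD of the excess over the 10 pairs of array chromosomes was 0.0705, 0.0542 and 0.0428, respectively. Of the 91 chromosome pairs among the other autosomes, 11, 5 and 14 had an excess above the value pooled over the array chromosomes. Single pairs vary more than a pooled value, so this count does not rank the array chromosomes. Without matching, the difference was 0.104 in myoblasts, 0.0898 in myotubes and 0.0738 after AraC treatment. The reference was then limited to 6 autosomes near in length (chr 9, chr 10, chr 11, chr 13, chr 14 and chr 17). Against these, the excess turned to −0.0278 in myoblasts, but was 0.0308 in myotubes and 0.0256 after AraC treatment. The 6 measure from 95.0 Mb (chr 17) to 130.7 Mb (chr 10). Chr 18 (90.7 Mb) and chr 19 (61.4 Mb) are shorter than all 6, so their length was not matched.

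Pairs with chr 19, the shortest autosome, contributed most to the excess, and those with chr 12 least. Without chr 19, the excess was 0.0175 in myoblasts, 0.0142 in myotubes and 0.00920 after AraC treatment, still above 0. Without chr 12, it was 0.0645, 0.0645 and 0.0482. Chr 18 with chr 19 had 0.215 in myoblasts, 0.156 in myotubes and 0.131 after AraC treatment, and ranked 2, 1 and 1 of all 171 pairs of autosomes. Chr 15 with chr 19 had 0.123, 0.117 and 0.0762, with ranks 6, 4 and 6. Chr 16 with chr 19 stood lower in myoblasts (0.0214, rank 40) than in myotubes (0.0779, rank 8) and AraC-treated myotubes (0.0648, rank 10). The pair of chr 15 and chr 16 went the other way, from 0.0768 in myoblasts to 0.0482 in myotubes and 0.0240 after AraC treatment.

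Chr 12 with chr 19 had 0.0370, 0.0387 and 0.0326 in the 3 conditions, close to the excess over all 10 pairs, and ranked 26, 19 and 24. Chr 15 with chr 18 had 0.0201, 0.0322 and 0.0207. The remaining pairs lay nearer to 0. Chr 12 with chr 15, chr 16 or chr 18 ranged from −0.0142 to 0.0168 over the 3 conditions, and chr 16 with chr 18 from −0.00802 to 0.0234. In all, 8 of the 10 pairs were above 0 in myoblasts, 9 in myotubes and 8 after AraC treatment.

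**Figure D1:**
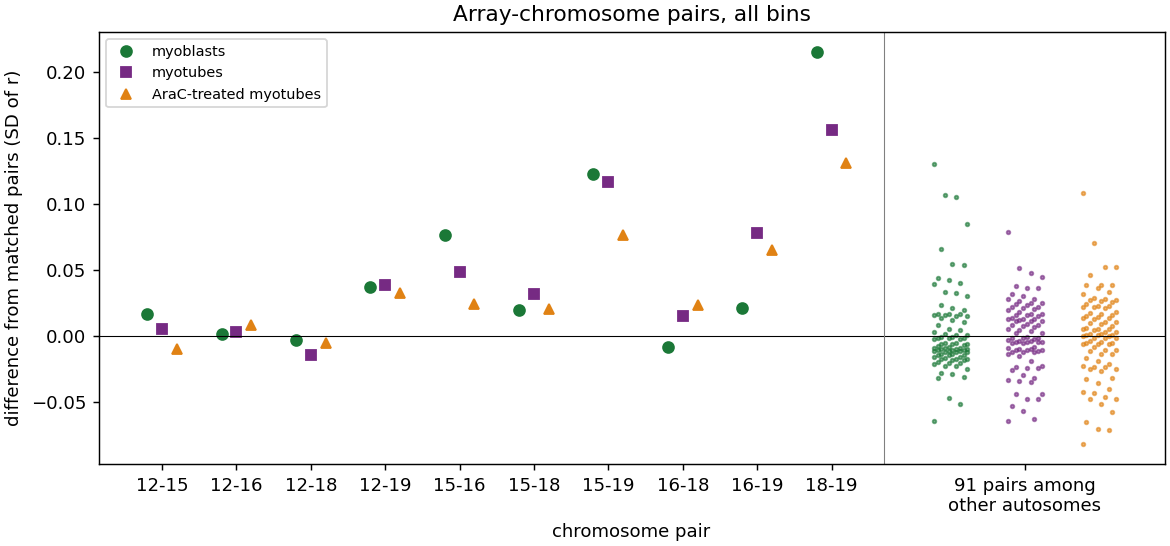
Excess of each pair of array chromosomes over matched pairs of bins (vertical axis, in SD of *r*), with the 3 conditions as coloured symbols and the 91 pairs among other autosomes as small points on the right. Chr 18 with chr 19 lies at 0.215, 0.156 and 0.131, above the highest of the 91 pairs in each condition (0.130, 0.0788 and 0.108), while most other array pairs lie among them.

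High values with chr 19 were not limited to array chromosomes. Chr 11, which is not among the 5 taken here as array carriers, had 0.294 with chr 19 in myoblasts, 0.147 in myotubes and 0.107 after AraC treatment. Chr 17 with chr 19 had 0.131, 0.134 and 0.111. On average, chr 19 had 0.0991, 0.0974 and 0.0761 with the 4 other array chromosomes and 0.0427, 0.0246 and 0.0200 with the 14 other autosomes. Chr 11 showed as wide a contrast, with 0.111, 0.0577 and 0.0452 towards the 5 array chromosomes and 0.0199, −0.0155 and −0.0196 towards the 13 other autosomes. Across all 171 pairs of autosomes, the excess had a Pearson correlation with the summed length of the pair of −0.460 in myoblasts, −0.403 in myotubes and −0.349 after AraC treatment. Among the 91 pairs without an array chromosome, it was −0.407, −0.0629 and −0.00839. These points share chromosomes and are not independent. Chromosome length and membership of the array set cannot be told apart for the shortest chromosomes, since both chr 18 and chr 19 were taken here as array carriers.

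By compartment, the excess lay in pairs of like bins. Chromatin divides into an A compartment, rich in active genes, and a B compartment, and each bin was assigned by the sign of the first principal component of its own chromosome (PC1). Where both bins were in A, array chromosomes had an excess of 0.0565 in myoblasts, 0.220 in myotubes and 0.221 after AraC treatment. Where both were in B, it was 0.112, 0.164 and 0.121. Pairs of an A bin with a B bin were slightly below the matched pairs, with −0.0205, −0.0416 and −0.0407. With the compartment of both bins added to the matching, the excess over all pairs was 0.0409, 0.0750 and 0.0593. Pairs of A with A made up 14.9%, 14.8% and 13.7% of array-chromosome pairs, and in each condition within 2 percentage points of the share among the other autosomes.

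By distance from the chromosome starts, the excess was below 0 in the first 10 Mb. With both bins in the first 10 Mb, where the arrays are closest, array chromosomes had a mean *z* of 0.638 in myoblasts, 0.170 in myotubes and 0.130 after AraC treatment. TSS-matched pairs of the other autosomes had 0.680, 0.260 and 0.228, so that the excess was −0.0426, −0.0902 and −0.0981. From 10 to 20 Mb, the excess was 0.112, 0.0577 and 0.00578, and from 20 to 40 Mb it was 0.0491, 0.0688 and 0.0669. Between 40 and 80 Mb, it changed sign between classes and conditions (−0.0492 to 0.0541), and from 80 to 100 Mb it was 0.106, 0.0528 and 0.0404 over 6 chromosome pairs. Beyond 100 Mb, only chr 12 with chr 15 had pairs (296 bin pairs), at −0.198, −0.537 and −0.565. In array and other chromosomes alike, *z* was highest near the starts in myoblasts, and this level of *z* was lower in myotubes. The SD of *r* that divides *z* was larger in myotubes, and *r* itself did not fall in both sets. In the first 15 Mb, mean *r* was 0.0347 in myoblasts and 0.0295 in myotubes on array chromosomes. In matched pairs of the other autosomes, it was 0.0328 and 0.0354.

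**Figure D2:**
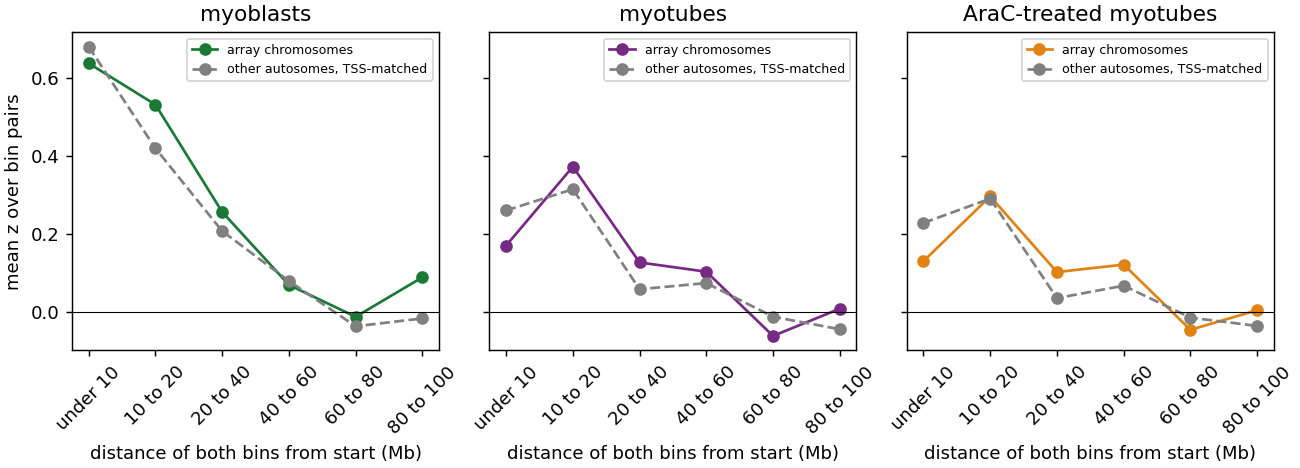
Mean *z* of bin pairs (vertical axis) whose bins both lie in the given class of distance from the chromosome start (horizontal axis, Mb), for array chromosomes (coloured) and TSS-matched pairs of other autosomes (grey, dashed), 1 panel per condition. Under 10 Mb, the array chromosomes lie below the others in all 3 panels (0.638, 0.170 and 0.130 against 0.680, 0.260 and 0.228).

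The bins within the first 15 Mb were then compared with finer matching of distance. They were 119 bins and 5664 bin pairs on array chromosomes, against 319 bins and 47201 bin pairs on the others. In myoblasts, mean *z* was 0.660 on array chromosomes and 0.617 in matched pairs, an excess of 0.0436. In myotubes, it was 0.248 against 0.314 (−0.0663), and in AraC-treated myotubes 0.172 against 0.266 (−0.0936). The SD over the 10 chromosome pairs was 0.154, 0.0806 and 0.0771. The direction of these values was not stable. In myoblasts, it ranged from −0.0330 without chr 15 to 0.125 without chr 12 as each chromosome was left out, and it was 0.0132 without chr 18. In myotubes, it ranged from −0.0969 to −0.0275 and after AraC treatment from −0.120 to −0.0523, with the value nearest to 0 without chr 12 in both. With the compartment matched as well, it was 0.0337 in myoblasts, 0.135 in myotubes and 0.116 after AraC treatment. Against the 6 autosomes near in length, it was −0.0666, 0.0910 and 0.104.

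Near the starts, chr 15 had high values with 3 of the 4 other array chromosomes in myoblasts. It had 0.295 with chr 19, the second highest value (rank 2) of the 171 pairs, 0.197 with chr 18 (rank 9) and 0.179 with chr 16 (rank 13), but −0.0400 with chr 12 (rank 94). In myotubes the first 3 pairs had 0.0123, 0.00255 and 0.0163, and in AraC-treated myotubes −0.0598, −0.0457 and −0.0151. Chr 12 with chr 19 was low throughout, with −0.189, −0.241 and −0.262. Of the 10 pairs, 5 were above 0 in myoblasts, 3 in myotubes and 0 after AraC treatment. The change of the start-proximal excess was −0.110 from myoblasts to myotubes (SD over pairs 0.0883; 1 of 10 pairs higher) and −0.137 to AraC-treated myotubes (SD 0.116; 1 of 10 higher). Between myotubes and AraC-treated myotubes it was −0.0273 (SD 0.0461; 3 of 10 higher). The fall from myoblasts became a rise with the compartment matched and against the 6 autosomes near in length, by the values above, so it has no stable direction. Over all bins, the corresponding changes were −0.00256, −0.0120 and −0.00946, all smaller than their SD over pairs (0.0306, 0.0393 and 0.0161). On a scale of *r* common to the conditions, the first and second of these turned to 0.0220 and 0.00356.

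**Figure D3:**
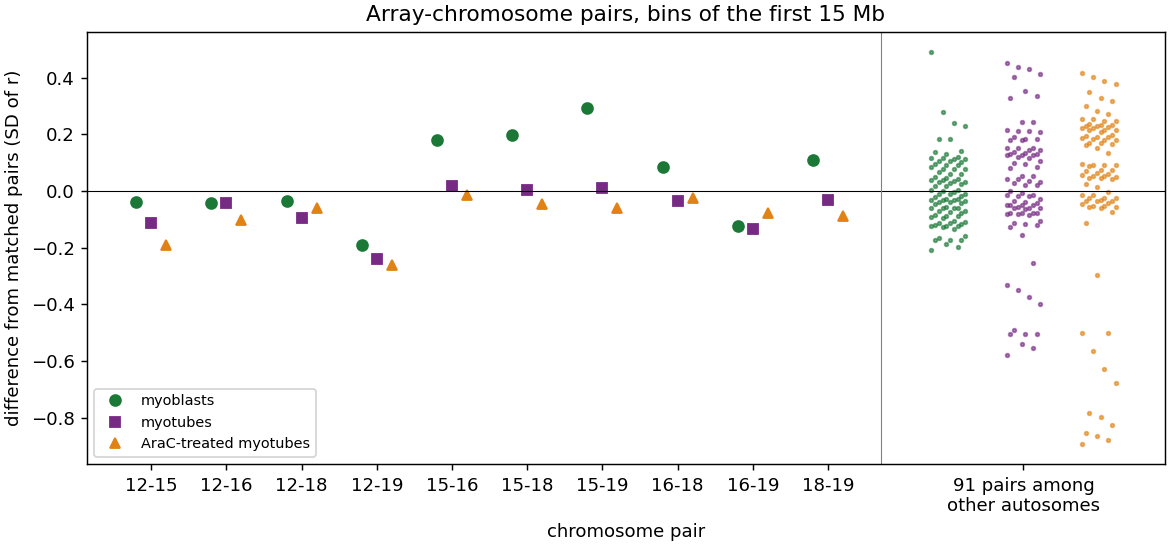
Excess of each pair of array chromosomes for bins in the first 15 Mb (vertical axis, in SD of *r*), by condition, with the 91 pairs among other autosomes on the right. Chr 15 with chr 16, chr 18 and chr 19 lies at 0.179, 0.197 and 0.295 in myoblasts, and all 10 pairs lie below 0 in AraC-treated myotubes, within the range of the other autosomes (−0.894 to 0.418).

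The first bin with data of each array chromosome is the closest available to the array, and these bins had higher values with one another than the first bins of other autosomes did on average. These were chr 12 (3000001–3500000; *Asxl2*, *Kif3c* and *Rab10*), chr 15 (3000001–3500000; *Ccdc152* and *Selenop*), chr 16 (3500001–4000000; 11 protein-coding genes including *Cluap1* and *Mefv*), chr 18 (3000001–3500000; *Crem*, *Cul2* and *Vmn1r238*) and chr 19 (3000001–3500000; *Cpt1a*, *Gal*, *Ighmbp2*, *Mrpl21* and *Tesmin*). With one another, they had a mean *z* of 1.79 in myoblasts, 0.935 in myotubes and 1.27 after AraC treatment over 10 pairs. The first bins of the other autosomes had 1.26, 0.635 and 0.679 over 91 pairs. The highest of the 10 pairs in myoblasts was chr 15 with chr 19 (2.98), followed by chr 15 with chr 18 (2.41) and chr 16 with chr 19 (2.24), and the lowest was chr 12 with chr 15 (0.297). The ranges overlapped widely, since the 91 other pairs ran from −1.17 to 5.89 in myoblasts. These pairs were not matched on TSS.

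A bin pair was called strong where *z* was above 2. Of the array-chromosome pairs, 2.41% were strong in myoblasts, 2.48% in myotubes and 2.72% after AraC treatment. The share over all autosomal pairs was 2.71%, 2.38% and 2.62%, so the array chromosomes stood near the background. Matched pairs of the other autosomes had 1.93%, 1.36% and 1.47%.

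Changes of a bin pair between conditions were counted where *z* moved by more than 1. From myoblasts to myotubes, 2.63% of array-chromosome pairs rose (2.84% of all pairs) and 4.01% fell (4.27%). From myoblasts to AraC-treated myotubes, 4.15% rose (4.5%) and 6.05% fell (6.19%). Between myotubes and AraC-treated myotubes, 0.853% rose (0.761%) and 0.375% fell (0.289%). These shares were near those of all pairs. Matched pairs of the other autosomes had 1.91% rises and 4.08% falls from myoblasts to myotubes, and 2.96% and 5.74% from myoblasts to AraC-treated myotubes. Between myotubes and AraC-treated myotubes, they had 0.418% rises and 0.230% falls.

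The strongest pairs joined gene-dense bins of chr 15 and chr 19. The pair of chr 15 (79000001–79500000), with 18 genes including the transcription factor gene *Sox10* and *Polr2f*, which encodes a subunit shared by nuclear RNA polymerases, and chr 19 (5000001–5500000), with 29 genes including *Cfl1* and *Fosl1*, had a *z* of 9.74 in myoblasts, 7.20 in myotubes and 6.83 after AraC treatment. The corresponding *r* was 0.440, 0.648 and 0.503. Chr 15 (76500001–77000000), with 28 genes including the ribosomal protein gene *Rpl8*, had 9.09, 6.87 and 6.95 with chr 19 (4500001–5000000), which holds the muscle actinin gene *Actn3*. Chr 15 (76000001–76500000), with 25 genes including *Bop1*, had 8.93, 6.74 and 6.69 with chr 19 (4000001–4500000; 30 genes including *Ppp1ca*). The GC content of the bins in these pairs was between 46.6% and 51.6%, above the 41.7% mean of the array chromosomes.

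The preference of a bin was its mean excess towards the other array chromosomes, compared with its own values towards matched bins of the other autosomes. Over the 908 bins, the mean was 0.0434 (SD over bins 0.0668) in myoblasts, 0.0374 (SD 0.112) in myotubes and 0.0312 (SD 0.116) in AraC-treated myotubes. The share above 0 was 74.7%, 52.9% and 48.2%. On chr 15 it was 95.0% in myoblasts, 65.3% in myotubes and 62.9% after AraC treatment, while on chr 12 it was 53.6%, 36.6% and 34.8%. Preference was above 0 in all 3 conditions in 385 bins and below 0 in all 3 in 184 bins.

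After differentiation, the preference followed the compartment of the bin. In A bins, the mean was 0.0830 in myoblasts, 0.154 in myotubes and 0.158 after AraC treatment. In B bins, it was 0.0184, −0.0357 and −0.0432. A spread of this size was not particular to array-chromosome bins. Over the 3819 bins of the other autosomes, the matched difference between array chromosomes and other autosomes had an SD of 0.0613, 0.111 and 0.123. Its 95th percentile was 0.117, 0.226 and 0.251, against 0.155, 0.249 and 0.256 for the preference of the 908 bins. Across the 908 bins, preference in myotubes and AraC-treated myotubes had a Pearson correlation of 0.945, and preference in myoblasts had 0.612 with myotubes and 0.570 with AraC-treated myotubes. Neighbouring bins share signal, so these correlations are descriptions.

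**Figure D4:**
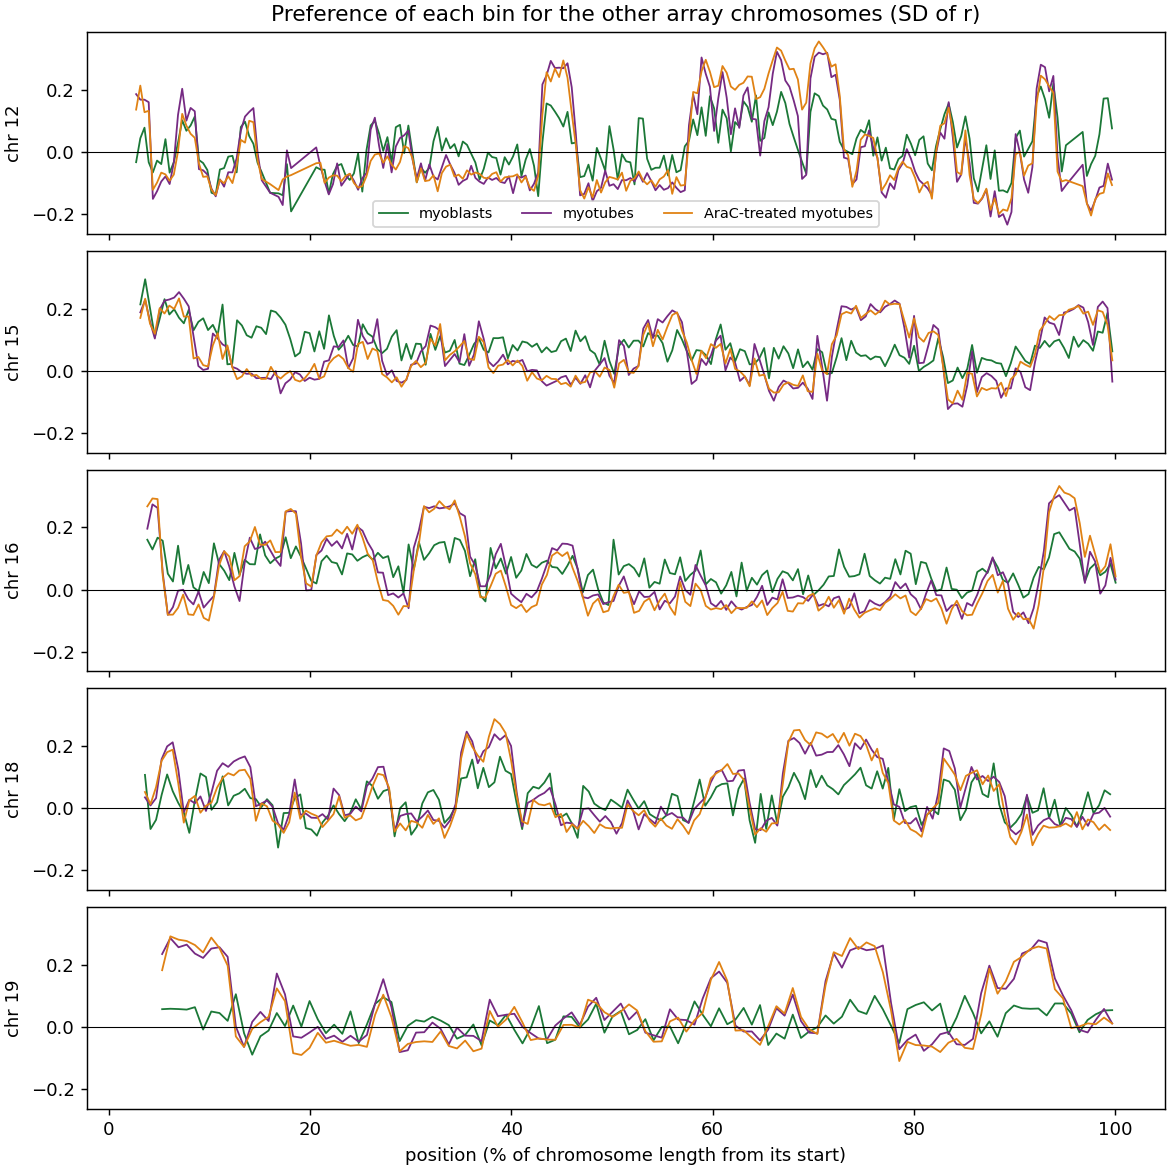
Preference of each bin for the other array chromosomes (vertical axis, in SD of *r*) against its position as a percentage of chromosome length from the start (horizontal axis), 1 panel per array chromosome and 1 line per condition. Myotubes and AraC-treated myotubes trace nearly the same blocks (*r* = 0.945), and the line of myoblasts is flatter (SD over bins 0.0668, against 0.112 and 0.116).

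The highest preference was found in A bins of chr 12 and chr 16. Chr 12 (84500001–85000000; 10 genes including *Npc2* and *Ltbp2*) had 0.180 in myoblasts, 0.320 in myotubes and 0.356 after AraC treatment, and the neighbouring bin (84000001–84500000; 18 genes including the acyl-CoA thioesterase genes *Acot1* and *Acot3* to *Acot6*) had 0.189, 0.306 and 0.333. Chr 16 (92500001–93000000), which holds the gene of the haematopoietic transcription factor *Runx1*, had 0.184, 0.303 and 0.333. Their own mean *z* with array chromosomes in myotubes was negative (−0.192, −0.212 and −0.297), and the matched bins elsewhere were lower still (−0.511, −0.518 and −0.601). The 3 lowest bins were consecutive on chr 12 (106000001–107500000; *Vrk1* and *3110018I06Rik*), with −0.123 to −0.130 in myoblasts, −0.199 to −0.233 in myotubes and −0.185 to −0.199 in AraC-treated myotubes. All 3 were in B in all 3 conditions.

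Among the bins that changed most, preference and PC1 moved in the same direction. PC1 was not scaled between conditions. From myoblasts to myotubes, it also went from 1.94 to 3.44 in the chr 12 bin of highest preference. In the chr 12 bin of lowest preference (107000001–107500000), it went from −1.09 to −1.75. A change in the size of PC1 without a change of sign is therefore not read as a change of compartment. Chr 19 (57000001–57500000; *Ablim1*, *Afap1l2*, *Fam160b1* and *Trub1*) rose from 0.0370 in myoblasts to 0.270 in myotubes, while its PC1 went from 1.06 to 2.05. Chr 19 (5500001–6000000; 24 genes including the acetyltransferase gene *Kat5*) rose from −0.00842 to 0.222 and was at 0.239 in AraC-treated myotubes. Chr 12 (71000001–71500000; 5 genes including *Arid4a*) rose from 0.0521 in myoblasts to 0.297 in AraC-treated myotubes.

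The falls lay on chr 12 and chr 15. Chr 12 (118500001–119000000; *Abcb5* and *Sp8*) fell from 0.172 in myoblasts to −0.109 in myotubes and −0.130 after AraC treatment, with PC1 going from 0.0917 to −0.796 and −0.834. The next bin of chr 12 (119000001–119500000; *Itgb8* and *Macc1*) went from 0.173 to −0.0685 in AraC-treated myotubes, and chr 15 (17500001–18000000), without a protein-coding TSS, from 0.171 to −0.0725 in myotubes.

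Between myotubes and AraC-treated myotubes, the 2 largest rises were adjacent bins of chr 12. The bin of *Dpf3* (83000001–83500000), which encodes a BAF complex subunit of heart and skeletal muscle, went from −0.0731 to 0.159, and its PC1 from −0.848 to 0.681. The bin of *Rgs6* (82500001–83000000) went from −0.0863 to 0.136. The largest falls, on chr 12 at 31500001–32000000 (6 genes including *Hbp1*) and at 8000001–8500000 (*Gdf7*, *Hs1bp3* and *Ldah*), were smaller, from 0.110 to −0.00811 and from 0.120 to 0.00243.

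Of 35 listed genes for rRNA transcription and nucleolar proteins, 33 had an autosomal bin with data, and 5 of these were on array chromosomes. *Twistnb* (chr 12) encodes a subunit of RNA polymerase I, and *Rrn3* (chr 16) encodes the factor that brings the polymerase to the rRNA promoter. *Tcof1* (chr 18) encodes treacle, *Nolc1* (chr 19) a nucleolar phosphoprotein, and *Bop1* (chr 15) a factor of large-subunit maturation. The bin of *Rrn3* had a preference of 0.0815 in myoblasts, 0.167 in myotubes and 0.155 after AraC treatment. The bin of *Nolc1* had 0.0418, 0.247 and 0.272, that of *Bop1* 0.0341, 0.205 and 0.189, that of *Tcof1* 0.0371, 0.112 and 0.0797, and that of *Twistnb* 0.0480, 0.0256 and −0.0139. The median over the 5 bins was 0.0418, 0.167 and 0.155, against 0.0457, 0.00770 and −0.00660 over all 908 bins. Their PC1 was above 0 in all 3 conditions, so all were A bins. The mean preference of all A bins was 0.0830, 0.154 and 0.158. In myoblasts, all 5 bins lay below this mean. In myotubes and AraC-treated myotubes, they lay on both sides of it.

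The bin of the assembled 45S copy on chr 17 (39500001–40000000) differed between array and other chromosomes by more than the SD over the other autosomes. These differences of means were not matched on TSS or distance, so they are not on the measure of the excess over all bins. This bin also holds the pheromone peptide genes *Esp15*, *Esp16* and *Esp38*, has 156 HindIII sites and was in B (PC1 −0.228, −0.574 and −0.391). In myoblasts, its mean *z* was 1.28 with chr 19, 0.715 with chr 18, 0.638 with chr 15, 0.366 with chr 16 and 0.310 with chr 12. The 13 other autosomes lay between −0.235 and 0.228, with chr 14 the highest, so the 5 array chromosomes held the 5 highest places of 18. The mean was 0.662 over the array chromosomes and 0.0661 over the others, a difference of 0.595, against an SD over the 13 others of 0.147.

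All 5 array chromosomes were again the highest in myotubes, but not with AraC. In myotubes, the values were 0.651 with chr 19, 0.472 with chr 16, 0.451 with chr 15, 0.433 with chr 18 and 0.281 with chr 12, above all 13 others, of which chr 13 was highest at 0.271. Chr 12 was thus barely above it. The difference of the means was 0.322 (SD over the others 0.0921). In AraC-treated myotubes, it was 0.144 (SD 0.0989), and 2 of the 5 array chromosomes, chr 19 (0.312) and chr 18 (0.304), were above every other autosome, of which chr 10 was highest at 0.265. Chr 16 had 0.255, chr 15 0.187 and chr 12 0.149.

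The bins on either side did not show this. The difference was 0.0520 in myoblasts, 0.0281 in myotubes and 0.0850 after AraC treatment for the bin before (39000001–39500000), and 0.0538, 0.0172 and 0.0604 for the bin after (40000001–40500000). All 6 were smaller than the SD over the other autosomes.

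**Figure D5:**
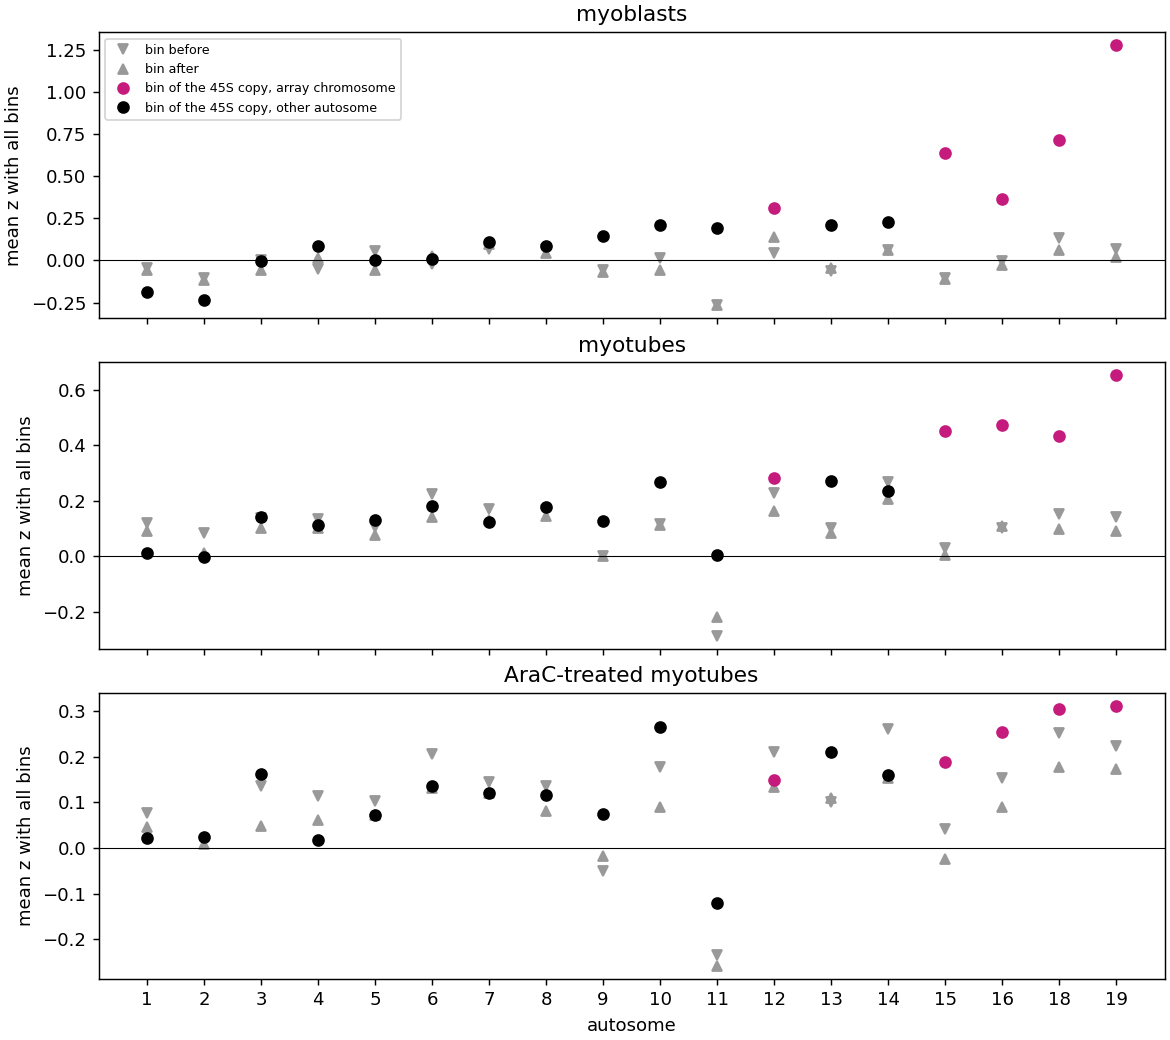
Mean *z* of the bin of the 45S copy (circles) and of the bins before and after it (triangles) with all bins of each autosome (horizontal axis, without chr 17), 1 panel per condition with its own scale. In myoblasts, the 5 array chromosomes (pink) lie between 0.310 and 1.28 and the 13 others (black) between −0.235 and 0.228, and in AraC-treated myotubes the sets overlap.

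Chromosome length moved with this result. Over the 13 other autosomes, the mean *z* of the 45S bin had a Pearson correlation with length of −0.935 in myoblasts, −0.613 in myotubes and −0.275 after AraC treatment, while the bins before and after it ranged from −0.0111 to 0.215. A straight line of mean *z* on length was therefore fitted over those 13 chromosomes, after the values had been seen. In myoblasts, chr 19 lay 0.722 above the line, chr 15 0.330, chr 18 0.330, chr 12 0.0959 and chr 16 0.0241, against a residual SD of 0.0544 and a highest residual of 0.0830 among the others. Chr 16 thus lay within the spread around the line. In myotubes, the 5 lay 0.0847 (chr 12) to 0.315 (chr 19) above the line, with chr 12 below the highest residual of the others (0.0939). In AraC-treated myotubes, they lay 0.0226 to 0.144 above it, all below the highest residual of 0.151. All 5 array chromosomes are shorter than the shortest of the 13, chr 12 by less than 1 Mb, so the line was extended beyond the lengths it was fitted on.

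The high values did not lie at the chromosome starts alone. In the first 15 Mb, the array chromosomes exceeded the others by 0.263 in myoblasts and 0.0116 in myotubes, and the difference was −0.0924 after AraC treatment. In the first 10 Mb, chr 19 had −0.0555 in myoblasts and −0.537 in myotubes, below the 1.03 and 0.652 of the other autosomes. It reached 1.97 and 1.02 from 10 to 20 Mb, and 1.65 and 1.01 from 20 to 40 Mb. Chr 15 had 1.18 in the first 10 Mb and 1.83 from 10 to 20 Mb in myoblasts. Chr 16 was the only array chromosome of the 5 that was highest in the first 10 Mb in both myoblasts (1.58) and myotubes (1.08). With partner bins matched on TSS and distance, the difference was 0.261 in myoblasts, 0.181 in myotubes and 0.0443 after AraC treatment. This placed the 45S bin at rank 2, 375 and 1093 of the 3819 bins of the other autosomes.

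Strong partners of the 45S bin, again with *z* above 2, lay mostly on array chromosomes in myoblasts. They numbered 93 of the 908 array-chromosome bins (10.2%) and 22 of 3635 bins on the other autosomes (0.605%), against 2.53% over all 4543. Chr 19 had 38 of 117 bins (32.5%), chr 15 had 36 of 202 (17.8%), chr 18 had 8 of 175, chr 16 had 7 of 190 and chr 12 had 4 of 224. In myotubes, there were 6 strong partners in all (0.132%), 5 on chr 15 and 1 on chr 19, and in AraC-treated myotubes there were 0 (0%). A *z* of 2 stands for a higher *r* in myotubes, where the SD of *r* was larger. In myoblasts and myotubes, mean *r* was 0.0623 and 0.0654 with chr 19, 0.0372 and 0.0459 with chr 18, and 0.0337 and 0.0475 with chr 15. It was 0.0216 and 0.0494 with chr 16, and 0.0191 and 0.0325 with chr 12. Chr 14 in myoblasts (0.0154) and chr 13 in myotubes (0.0315) were highest of the others. After AraC treatment, mean *r* was 0.0140 to 0.0259 with the array chromosomes. Of the 5 partners with the highest mean over the conditions, 4 were on array chromosomes: chr 19 (48000001–48500000; *Sorcs3*), chr 15 (86500001–87000000), chr 15 (87000001–87500000) and chr 15 (12500001–13000000; *Drosha* and others). The remaining one was the first bin of chr 4 (3000001–3500000).

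For example, the 45S bin with the bin of *Sorcs3* had a *z* of 3.42 in myoblasts, 1.90 in myotubes and 1.18 after AraC treatment, and with the bin of *Drosha*, which encodes the nuclear microRNA-processing enzyme, 3.03, 2.08 and 1.18. All breakdowns of this bin beyond its means by chromosome were made after its values had been seen. Whether reads of rRNA arrays on other chromosomes were placed in this bin was not tested, since the matrices hold no reads.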

How the data were processed

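Hi-C libraries were prepared from C2C12 cells with HindIII and ligation in dilute condition. By the study's methods, reads were mapped with Bowtie, filtered to unique di-tags and processed in HOMER, where regions of excess tag density and pairs away from HindIII sites were removed. The submitters' processing notes list the builds mm10 and GRCh38, and the deposited bins are those of mm10. The authors deposited 1 matrix per condition, which the labels name for both replicates (6 libraries) and which is taken here as pooled. The deposited score of a pair of 500 kb bins is a correlation coefficient of normalized interaction profiles, used here without further normalization. Di-tags behind a score are unknown, so precision cannot be given, and bins with similar profiles can have a high *r* without direct contact.

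Bins whose diagonal was above 0.5 in all 3 matrices were kept. *z* was *r* minus the mean, divided by the SD, over all interchromosomal autosomal pairs of the condition. Pairs among other autosomes were weighted to the TSS classes (0, and from 1, 5 and 10 TSS) and distance classes (from 0, 10, 20, 40, 60, 80 and 100 Mb) of the array-chromosome pairs. In the first 15 Mb, distance classes began at 0, 6, 9 and 12 Mb. TSS are protein-coding, from GENCODE vM21 on GRCm38. PC1 was computed from the within-chromosome block, with its sign set by TSS density. Named bins were the first with data of each chromosome, the 3 highest and 3 lowest in mean preference, the 2 largest rises and falls of each pair of conditions, the 3 strongest bin pairs with each bin used once, and bins of the nucleolar list. The members, lists and rules were chosen with earlier results of these data known, and with 1 matrix per condition no test was run. Python 3.11.15, NumPy 2.4.6, pandas 2.3.3, SciPy 1.17.1 and Matplotlib 3.10.9 were used. The steps were tested on simulated matrices, where 3 of 3 known cases were recovered. These matrices held independent noise and effects of the same TSS and distance classes as the matching. They held no effect of chromosome length and no signal shared by neighbouring bins, so the recovery checks the calculation only. Alternatives changed the matching, reference chromosomes, scale, window, bins and thresholds, and left out each array chromosome in turn.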

Additional observations from a re-analysis of the deposited data

How the results depend on the processing

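Depth per value is unknown and no replicate values were used, so values limited by depth cannot be told from others. Library depth differed between conditions, so contrasts of *z*, strong pairs and preference between conditions cannot be told apart from it. No paired analysis was possible because each condition holds 1 matrix. Over all bins, the excess kept its direction in all but 1 of 45 recalculations. It turned to −0.0278 in myoblasts against the 6 autosomes near in length, and without matching it was 0.0738 in AraC-treated myotubes. Leaving out 1 chromosome at a time gave 0.0175 to 0.0645 in myoblasts, 0.0142 to 0.0645 in myotubes and 0.00920 to 0.0482 after AraC treatment, lowest without chr 19 and highest without chr 12. The start-proximal excess changed direction in 8 of 48. In myoblasts, it was −0.0666 against the 6 autosomes near in length, −0.0538 on the percentile scale, −0.0520 in the first 10 Mb and −0.0330 without chr 15. With the compartment matched, it was 0.135 in myotubes and 0.116 after AraC treatment, and against the 6 autosomes 0.0910 and 0.104.

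Mean preference in myoblasts, myotubes and AraC-treated myotubes was 0.0911, 0.0678 and 0.0563 with relative position in place of distance, 0.0877, 0.0656 and 0.0544 with TSS class only, and 0.0881, 0.0742 and 0.0608 without matching. It was 0.00910 in myoblasts against the 6 autosomes, and without chr 12 it was 0.0644 in myotubes and 0.0508 after AraC treatment. In *r* divided by a common SD, the change of the excess from myoblasts was 0.0220 to myotubes and 0.00356 to AraC-treated myotubes. At a change of *z* over 2, the share of array-chromosome pairs divided by that of all pairs was 0.339 for rises and 0.372 for falls from myoblasts to myotubes, 0.603 for falls to AraC-treated myotubes and 0 for falls between myotubes and AraC-treated myotubes. For the 45S bin, the difference in myoblasts was 0.0520 and 0.0538 in the bins before and after, 0.261 with matched partners, 0.3004 against the line on length and 0.441 without chr 19. In myotubes, it was 0.0281 and 0.0172 in the bins beside it, 0.181 with matched partners and 0.201 against the line, and in AraC-treated myotubes 0.0443 with matched partners. Matched partners, the line and chromosomes left out for this bin were added after the data were seen. The cause of these shifts was not tested.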

Other observations

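A bin of chr 1 (183000001–183500000) had the highest matched difference between array chromosomes and other autosomes of all 3819 bins outside the array chromosomes in myoblasts (0.778) and in myotubes (0.388), and rank 125 in AraC-treated myotubes (0.272). It holds *Taf1a*, which encodes a subunit of the RNA polymerase I selectivity factor, and *Aida*, *Brox*, *Disp1*, *Hhipl2* and *Mia3*, and it was singled out after its values had been seen. In myoblasts, its mean *z* was 1.74 with chr 15, 1.69 with chr 19, 0.657 with chr 16, 0.635 with chr 18 and 0.247 with chr 12, against at most 0.503 with another autosome (chr 11). In myotubes, it was 0.627 with chr 15, 0.529 with chr 19, 0.275 with chr 16, 0.181 with chr 18 and −0.0502 with chr 12, and chr 11 (0.428) was above 3 of the 5. After AraC treatment, the 5 lay between −0.195 and 0.261, below chr 11 (0.698). With the first 10 Mb of chr 15, it was 5.12 in myoblasts (14 bins, from 2.85 to 7.45), 1.90 in myotubes and 1.33 after AraC treatment. The bins before and after it had matched differences of 0.0748 and 0.168 in myoblasts, 0.162 and 0.192 in myotubes and 0.218 and 0.247 after AraC treatment, and mean *z* below 0 with the first 15 Mb of chr 15 in myoblasts (−0.350 and −0.492, against 4.29). Its *z* with the bin of the 45S copy was 2.50 in myoblasts, 0.430 in myotubes and −0.0673 after AraC treatment.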
